A study of Oryza sativa with 4 samples.

Results

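Cyclins and cyclin-dependent kinases (CDKs) of rice were followed in the panicle primordia of the cultivars Pusa 1266 and Pusa Basmati 1. A gene was taken as a member when its symbol or a synonym in the reference gene table began with CYCA, CYCB, CYCD, CYCF, CYCH, CYCL, CYCP, CYCT, CYCU or CDKA to CDKG and then a number. Such names were found for 42 genes, and 35 of them had a probe set on the array that the array annotation gave to 1 gene. These were 35 of 17905 genes, represented by 45 of 57258 probe sets other than controls. They comprised 9 D-type cyclins, 7 mitotic cyclins of the A and B types, 8 other cyclins and 11 kinases. The 7 genes without a probe set here were CYCD2-1, CYCA3-1, CYCB1-5, CYCT1-1, CDKB1-1, CDKC-2 and CDKF-2, which were not analysed. No member carried a U-type name.

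Cyclins are regulatory subunits that switch on CDKs and give them their targets. In plants, D-type cyclins act with A-type CDKs at the entry into DNA replication, where they relieve the block that retinoblastoma-related proteins place on E2F factors. A- and B-type cyclins, with A- and B-type CDKs, carry cells through replication and into mitosis, and kinases of the C to G classes serve mainly in transcription, in splicing or in activating other CDKs. In a young panicle, divisions of the meristems lay down branches and spikelets, which makes the level of these genes of interest in comparing panicle primordia between cultivars.

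Both cultivars belong to the Indica Group, and each contributed 2 biological replicates of panicle primordia at the stage numbered 0, so 4 arrays in all. The characteristic labels give Pusa 1266 a high and Pusa Basmati 1 a low grain number per panicle, whereas the sample titles call both low, so the groups are named by cultivar only. The sources used here do not say how many panicles went into a sample or how the plants were grown. Total RNA from whole primordia was labelled and hybridized to Affymetrix arrays, so fewer cells of a type and less RNA per cell cannot be told apart.

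Several features of the arrays moved with cultivar. Deposited signals had medians of 6.8 and 7.8 on the Pusa 1266 arrays and of 11.5 and 11.3 on the others, so the arrays were brought to 1 level by quantile normalization of log2(signal + 16). The 3' to 5' signal ratio, a sign of RNA integrity, was higher in both Pusa 1266 arrays for all 5 pairs of control probe sets that could be read. Separate pairs for actin were counted apart. The mean ratio of Pusa 1266 was 1.24 to 3.25 times that of Pusa Basmati 1. Markers of the panicle primordium were present on every array. OSH1, a homeobox gene of meristems, gave deposited signals between 2032 and 2279. The summed normalised signal of 7 panicle markers was 10112 and 9966 in Pusa 1266 against 6853 and 6502 in Pusa Basmati 1. On the probe sets used 5 of 7 were called higher and 1 lower, where 34.7% and 26.3% of all tested genes were. MADS14, not called there, was called lower on each of its other probe sets, at −0.93, −1.96 and −1.45. MADS15, called higher at 0.15, had other probe sets called lower at −0.66, higher at 0.63 and not called at −0.05. For 3 green tissue markers the sum was 1134 and 995 against 2450 and 2482. Most of it came from CAB2R, with 1083 and 961 against 2341 and 2366. Both green tissue markers that could be tested were called lower, where 26.3% of all tested genes were. The third, RBCS1, gave signals of 3.3 or less on all arrays. Of 5 markers of later floral organs 3 were called higher, where 34.7% of all tested genes were, with sums of 2508 and 2459 against 2134 and 2210. The part of RNA integrity and tissue composition in the differences below was not tested.

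Tests were made for the 34 of 35 genes that stood above the array median on 2 or more arrays. The 1 left out was the F-type cyclin CYCF2-2, whose deposited signals lay between 0.9 and 2.3 in both cultivars. Differences are given as Pusa 1266 minus Pusa Basmati 1 on the log2(signal + 16) scale. A gene is called when its adjusted p in limma, with Benjamini-Hochberg adjustment over all 30029 tested probe sets, is 0.05 or less. By that rule 13 of the 34 were called higher in Pusa 1266, 7 lower and 14 in neither direction. Among all 15180 tested genes 61.0% were called, 34.7% higher and 26.3% lower, so the share of 58.8% among the 34 lies near the background. At 2-fold or more 3 members were higher and 1 was lower, where 5.53% and 7.34% of all genes were. At 26 of the 34 the arrays of the cultivars were fully apart, as at 81.9% of all tested genes. The median difference of the 34 was 0.14, and that of all tested genes was 0.07.

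**Figure D1:**
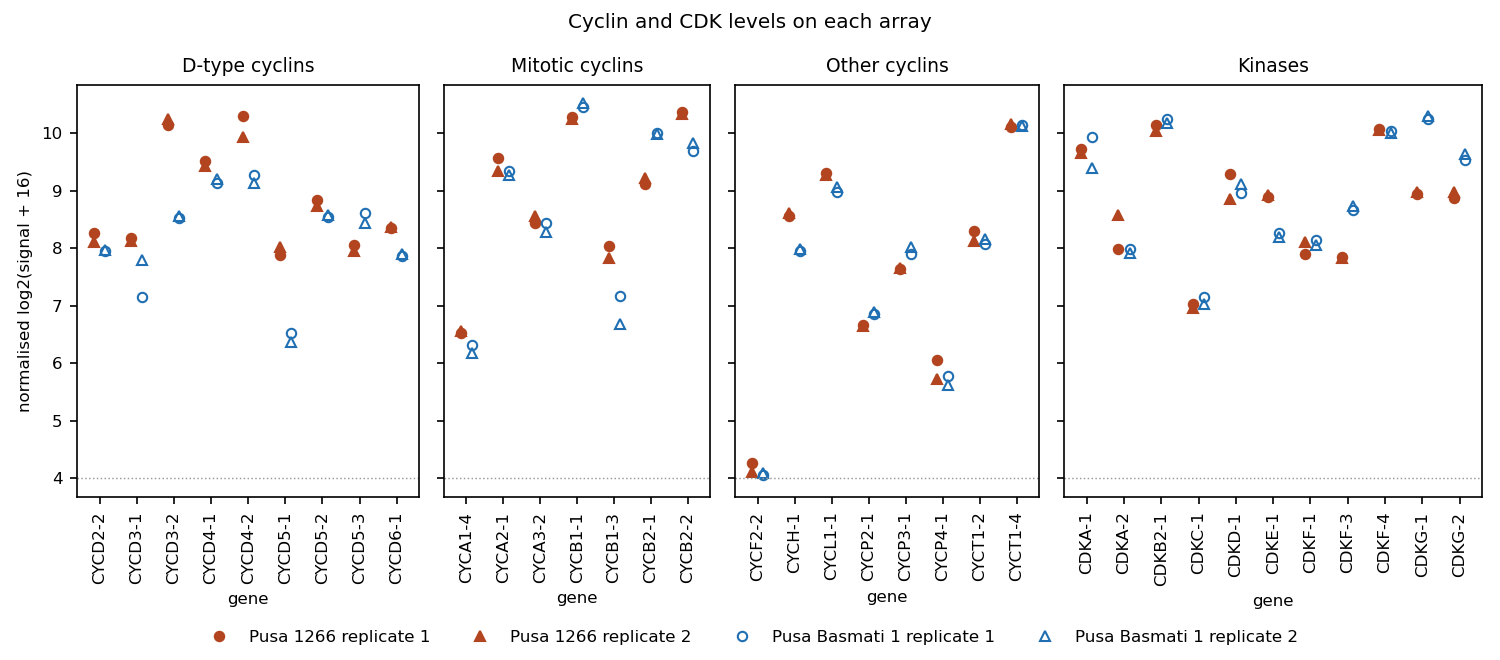
Normalised log2(signal + 16) of each cyclin and kinase gene on each array, with genes on the horizontal axis by class. Filled symbols are Pusa 1266 and open symbols Pusa Basmati 1, circles are replicate 1 and triangles replicate 2, and the dotted line at 4 marks a signal of 0. CYCD3-2, CYCD5-1 and CDKG-1 show the cultivars well apart, and CYCF2-2 lies at the floor on all arrays; heights of different genes come from different probe sets and cannot be set against each other.

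The scaling between arrays decided many of these directions. When each array was instead scaled to 1 trimmed mean, 12 of the 34 were called higher and 7 lower, where 34.6% and 27.1% of all tested genes were. With each array centred on its median the counts were 4 and 20, where 8.48% and 51.7% of all tested genes were called. With the signals as deposited they were 2 and 25, where 4.58% and 66.7% were. The median of all tested genes moved from 0.07 after quantile normalization to 0.07 with the trimmed mean, −0.38 with median centring and −0.62 as deposited. Under all 4 scalings CYCD3-2 and CYCD5-1 were called higher, which 4.58% of all tested genes were. Each of the 696 genes called higher as deposited was also called higher under the other scalings. A call of higher under all 4 is therefore the same as the deposited call. Another 6 were called lower under all 4, where 24.9% of all tested genes were: CYCD5-3, CYCB2-1, CYCP3-1, CDKF-3, CDKG-1 and CDKG-2. The 4 genes CYCD2-2, CYCD4-1, CYCD5-2 and CYCL1-1 were called in opposite directions under different scalings.

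**Figure D2:**
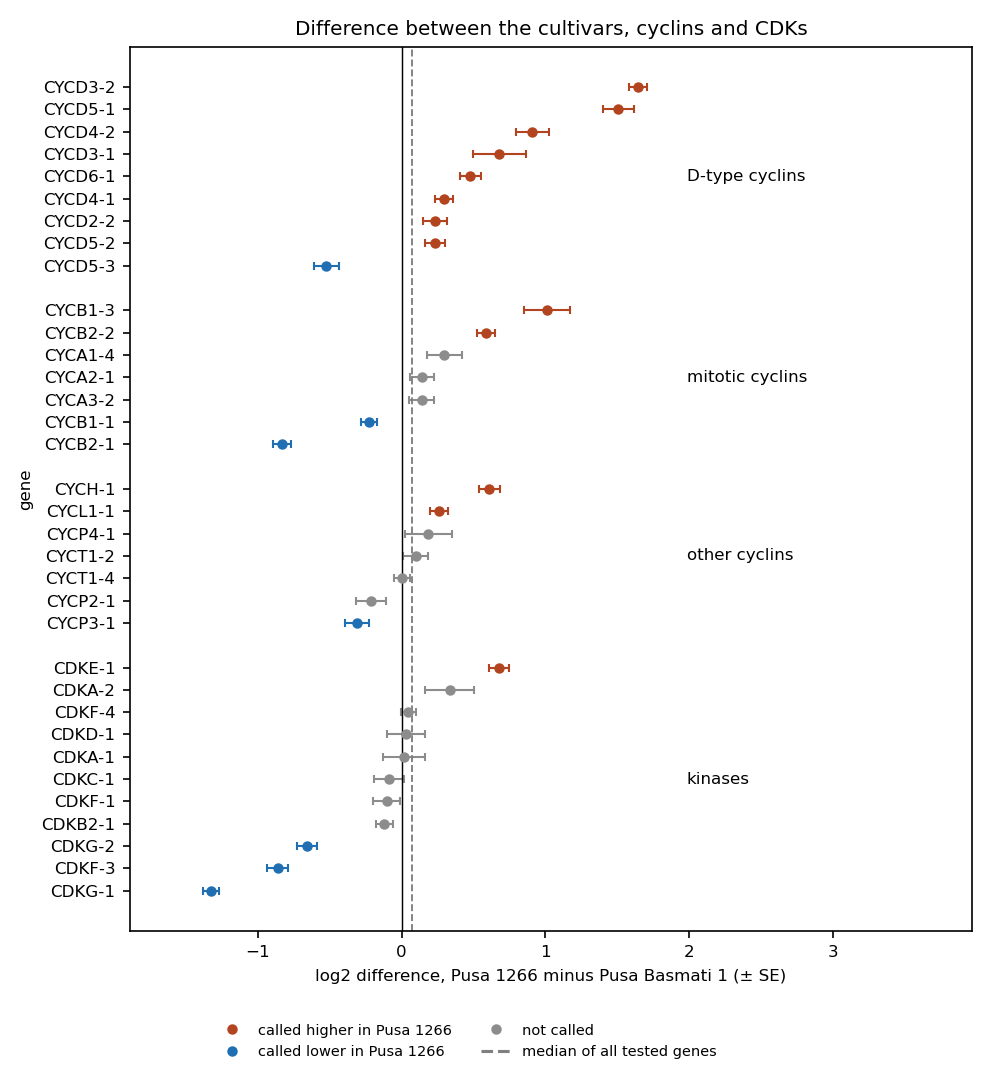
Log2 difference between the cultivars for the 34 tested cyclins and kinases after quantile normalization, Pusa 1266 minus Pusa Basmati 1, with the standard error from limma as bars (n = 2 arrays per cultivar). Of the 9 D-type cyclins 8 lie to the right of 0, while the kinases have 1 gene called higher and 3 called lower; the dashed line is the median of all tested genes at 0.07.

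D-type cyclins were called on every one of the 9 genes measured, 8 higher and 1 lower in Pusa 1266, with a median difference of 0.48. The shares of all tested genes were 34.7% and 26.3%. With the signals as deposited 3 of the 9 lay above 0 and the median was −0.35. Still 8 of the 9 then lay above the median of all tested genes, CYCD2-2 and CYCD5-2 by only 0.02 and 0.04. The count was also 8 with the trimmed mean and with median centring. Median centring shifts every gene alike, so its count could not differ from that of the deposited signals. None of the 9 had overlapping cultivars after quantile normalization, and neither did 81.9% of all tested genes. The genes were chosen by name, with earlier results of these data known.

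CYCD3-2, of a subfamily that in Arabidopsis sustains cell division in response to cytokinin, showed the largest difference of the 9. Its normalised signals were 1106 and 1192 in Pusa 1266 against 354 and 360 in Pusa Basmati 1, and its deposited signals were 799 and 975 against 448 and 514. Both Pusa 1266 arrays were thus above both Pusa Basmati 1 arrays in the deposited signals too. The gene was 3.12-fold higher (1.64 ± 0.06 on the log2 scale, SE, limma adjusted p = 6.24e-07). It lies on chromosome 9.

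CYCD5-1, on chromosome 3, was 2.84-fold higher (1.51 ± 0.11, adjusted p = 1.52e-05). The normalised signals were 219 and 245 in Pusa 1266 against 76.5 and 66.3. As deposited they were 148 and 194 against 97.4 and 94.7, so the cultivars were apart in those values too.

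CYCD3-1, the second D3-type gene, gave normalised signals of 273 and 264 in Pusa 1266 against 125 and 207 in Pusa Basmati 1, and on the log2 scale its Pusa Basmati 1 replicates lay further apart than those of the other D-type cyclins. It rose by 0.68 ± 0.18 (adjusted p = 0.0153). The value was 0.35 without the first and 1.00 without the second Pusa Basmati 1 replicate. Without either Pusa 1266 replicate it no longer passed, with adjusted p of 0.0669 and 0.0529.

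Of the 3 CYCD5 genes CYCD5-1 was higher, CYCD5-3 lower and CYCD5-2 slightly higher. CYCD5-3, like CYCD5-1 on chromosome 3, had normalised signals of 248 and 230 in Pusa 1266 against 373 and 328 in Pusa Basmati 1. It fell by 0.52 ± 0.09 (adjusted p = 0.00154), and its deposited signals of 169 and 182 against 471 and 471 lay further apart in the same direction. CYCD5-2 stood at 0.23 ± 0.07 (adjusted p = 0.026). Its second probe set stood at 0.84 ± 0.13 and was called higher as well.

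CYCD4-2, on chromosome 8, had normalised signals of 1240 and 961 in Pusa 1266 against 601 and 548 in Pusa Basmati 1. It was 1.88-fold higher (0.91 ± 0.11, adjusted p = 0.000282) and stood at 0.15 with the deposited scaling, where it was not called. CYCD6-1, whose Arabidopsis namesake drives formative divisions in the root, rose by 0.48 ± 0.07, with 310 and 313 against 217 and 221, but stood at −0.12 with median centring and −0.35 as deposited and was called in neither. CYCD4-1 at 0.30 ± 0.06 and CYCD2-2 at 0.23 ± 0.08 had the smaller differences with CYCD5-2. These 3 also turned negative with the deposited scaling, at −0.48, −0.60 and −0.58. CYCD2-2 did not pass without the first Pusa 1266 replicate or without either Pusa Basmati 1 replicate, with values of 0.16, 0.23 and 0.24. CYCD5-2 did not pass in the same 3 cases, with 0.17, 0.22 and 0.25. The number of D-type cyclins called higher was therefore 5 without the first Pusa 1266 replicate and between 6 and 7 without another array.

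**Figure D3:**
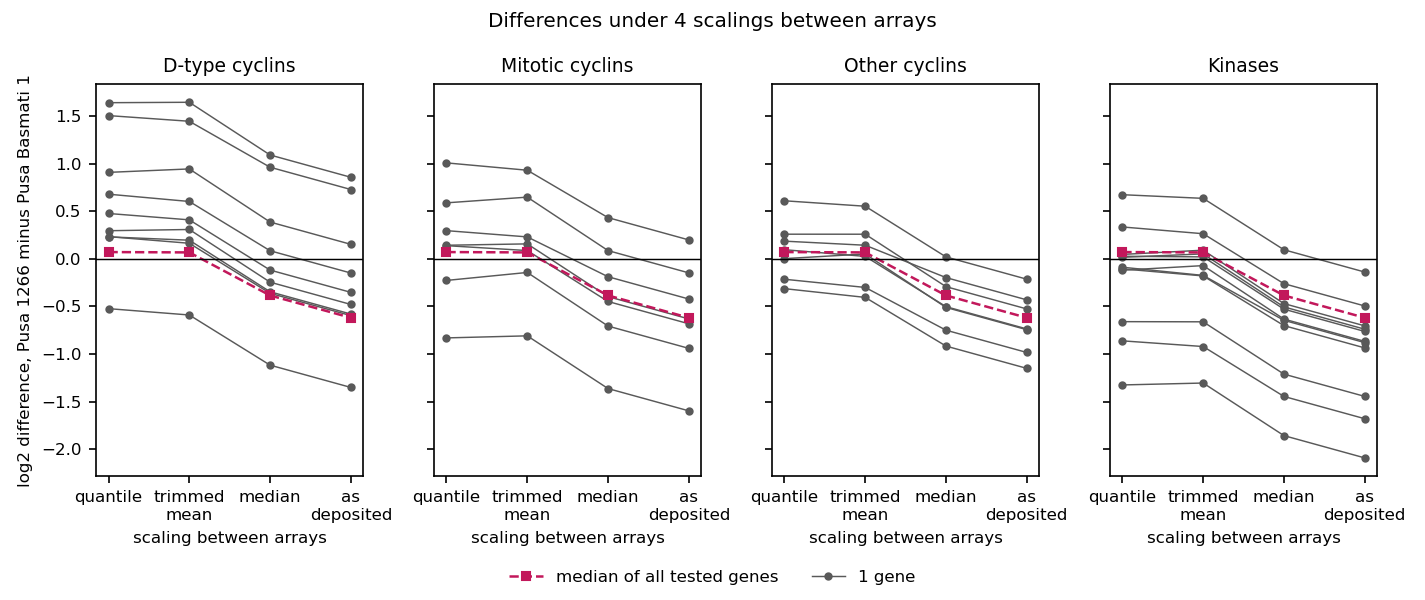
Log2 difference of each tested gene, Pusa 1266 minus Pusa Basmati 1, under 4 scalings between arrays, with 1 grey line per gene and the median of all tested genes as a dashed line. The median of all tested genes moves from 0.07 to −0.62, and of the D-type cyclins 8 of 9 stay above that line under each scaling. Between median centring and the deposited signals every gene shifts alike, so the count could not differ between these.

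The mitotic cyclins went in both directions, with 2 of 7 called higher, 2 lower and a median of 0.14. The 57.1% called lies near the 61.0% of all tested genes. All 4 calls fell on B-type genes. The A-type genes CYCA1-4, CYCA2-1 and CYCA3-2 stood at 0.30 ± 0.12, 0.14 ± 0.08 and 0.14 ± 0.08, and none was called. CYCA2-1 passed without the second Pusa 1266 replicate, at 0.25. With the deposited scaling the 7 genes had 5 calls lower and none higher, where 66.7% and 4.58% of all tested genes had them. With median centring 4 were called lower and 1 higher, where 51.7% and 8.48% were. Relative to the median of all tested genes 5 of the 7 lay above it after quantile normalization and 3 as deposited.

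B1-type cyclins accumulate at the passage into mitosis, and CYCB1-1 is in common use as a marker of dividing cells. Its normalised signals were 1229 and 1195 in Pusa 1266 against 1391 and 1450 in Pusa Basmati 1. The cultivars did not overlap, but the difference was small, at −0.23 ± 0.05 (adjusted p = 0.00759). It was −0.14 with the trimmed mean scaling (limma adjusted p = 0.083) and −0.20 without the second Pusa 1266 replicate, and it passed in neither. With median centring it was −0.71 and as deposited −0.94. It was called lower in both, where 51.7% and 66.7% of all tested genes were.

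CYCB1-3, to which the reference table also gives the synonym CycB1-1, was the mitotic cyclin with the largest rise. Its normalised signals were 246 and 212 in Pusa 1266 against 128 and 86.3 in Pusa Basmati 1. It was 2.01-fold higher (1.01 ± 0.16, adjusted p = 0.00115). The deposited signals of 167 and 167 against 165 and 124 were nearly level, and with that scaling the value was 0.20 and was not called.

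The B2-type pair was called in opposite directions; CYCB2-2 is known in rice to associate with CDKB2. CYCB2-1 had normalised signals of 538 and 577 in Pusa 1266 against 1012 and 994 in Pusa Basmati 1. It was 1.78-fold lower (−0.83 ± 0.06, adjusted p = 1.72e-05) and kept that direction under all 4 scalings. CYCB2-2 had 1300 and 1266 against 808 and 888 and rose by 0.59 ± 0.06 (adjusted p = 0.000127). Its second probe set, of a kind that can match several transcripts, was called lower at −0.45 ± 0.07, and the mean of both was 0.07 and not called. The rise of CYCB2-2 therefore rests on 1 of its 2 probe sets.

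Among the other cyclins 2 of 7 tested genes were called higher and 1 lower, with a median of 0.10, where 34.7% and 26.3% of all tested genes were. CYCH-1, the partner of D-type CDKs in the complex that activates other CDKs, was 1.53-fold higher, with normalised signals of 359 and 373 against 231 and 237 (0.61 ± 0.07, adjusted p = 0.000232). CYCL1-1, of a family linked to splicing, rose by 0.26 ± 0.06, but stood at −0.53 as deposited and did not pass without the first Pusa Basmati 1 replicate (0.22). The T-type cyclins, which pair with C-type CDKs in transcription elongation, were not called. CYCT1-4, which the reference table also lists as CYCT1-1, gave 1089 and 1128 against 1109 and 1103 (0.0030 ± 0.05), and CYCT1-2 stood at 0.10 ± 0.09. With the deposited scaling none of the 7 was called higher and 6 were called lower, where 66.7% of all tested genes were called lower.

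P-type cyclins resemble the cyclins of phosphate sensing in yeast. CYCP3-1 had normalised signals of 182 and 186 in Pusa 1266 against 223 and 242 in Pusa Basmati 1 and fell by 0.31 ± 0.08 (adjusted p = 0.0148). It did not pass without the second Pusa Basmati 1 replicate (−0.26). CYCP2-1 at −0.21 ± 0.10 and CYCP4-1 at 0.19 ± 0.16 were not called after quantile normalization, and CYCP2-1 was called with the trimmed mean scaling (−0.30).

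Of the 11 kinases 1 was called higher and 3 lower, with a median of −0.09. This is 36.4% called, beside 61.0% of all tested genes, and the difference between these shares was not tested. None of the 3 kinases of the A and B classes, the core engines of the cycle, was called. With the deposited scaling 10 of the 11 were called lower and none higher, where 66.7% and 4.58% of all tested genes were, and 9 of the 11 then lay below the median of all tested genes, as they did after quantile normalization.

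CDKA-1, a counterpart of the yeast kinase CDC2, gave normalised signals of 827 and 788 in Pusa 1266 against 964 and 659 in Pusa Basmati 1. The Pusa Basmati 1 replicates lay on either side of both Pusa 1266 arrays, and the difference was 0.02 ± 0.15. Without the first Pusa Basmati 1 replicate it was 0.29 (limma adjusted p = 0.0146) and without the second −0.25 (0.0222), so a call in either direction depended on 1 array. CDKA-2 had 237 and 368 against 237 and 225, and its difference of 0.34 ± 0.17 was not called. That probe set, like the one used for CDKA-1, can match several transcripts. Both other probe sets of CDKA-2 were called higher, at 0.80 ± 0.09 and 0.87 ± 0.12, but stood at −0.01 and 0.07 as deposited. CDKA-2 was also called without the first Pusa 1266 replicate, at 0.63.

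CDKB2-1, of the plant-specific class that peaks around mitosis, had 1117 and 1032 in Pusa 1266 against 1194 and 1142. The arrays of the cultivars did not overlap, yet the difference of −0.12 ± 0.06 was not called (adjusted p = 0.136). Of the mitotic partners listed above, CYCB2-1 was lower and CYCB2-2 higher on the probe sets used.

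The G-type kinases held the largest difference of the class. CDKG-1, whose Arabidopsis relatives act in splicing and in meiotic pairing, had normalised signals of 473 and 485 in Pusa 1266 against 1200 and 1247 in Pusa Basmati 1. It was 2.50-fold lower (−1.32 ± 0.06, adjusted p = 1.05e-06), and its second probe set was called lower too, at −0.98 ± 0.19. That probe set was dim, with deposited signals of 6.2 and 13.5 in Pusa 1266 against 48.7 and 57.3. CDKG-2 had 450 and 488 against 721 and 779 and was 1.58-fold lower (−0.66 ± 0.07, adjusted p = 0.000134). Its 2 other probe sets were dim, with deposited signals between 8.0 and 21.7. They stood at 0.53 ± 0.16, called higher, and at 0.02 ± 0.19, and the mean of all 3 was −0.03 and not called.

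CDKF-3 had normalised signals of 214 and 211 in Pusa 1266 against 387 and 411 in Pusa Basmati 1 and was 1.82-fold lower (−0.86 ± 0.07, adjusted p = 4.06e-05). CDKF-1, named like the Arabidopsis kinase that activates D-type CDKs, stood at −0.10 ± 0.09 and was not called. CDKD-1, known in rice as the CDK-activating kinase R2, gave 608 and 446 against 484 and 539 (0.03 ± 0.13), with overlapping cultivars. Its partner CYCH-1 was called higher on the same arrays. CDKC-1 stood at −0.09 ± 0.10 and was not called.

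CDKE-1, counterpart of the Mediator kinase, had 458 and 468 in Pusa 1266 against 291 and 277 and was 1.60-fold higher (0.67 ± 0.07, adjusted p = 0.000103). Its second probe set went the other way, with deposited signals of 7.3 and 11.1 against 105 and 126 and a difference of −1.87 ± 0.15, and the mean of both was −0.60. CDKF-4 gave 1058 and 1047 against 1032 and 1005 on its first probe set (0.05 ± 0.05, not called). On its second, with deposited signals of 51.0 and 67.6 against 447 and 463, it stood at −1.87 ± 0.10, and the mean of both was −0.91.

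**Figure D4:**
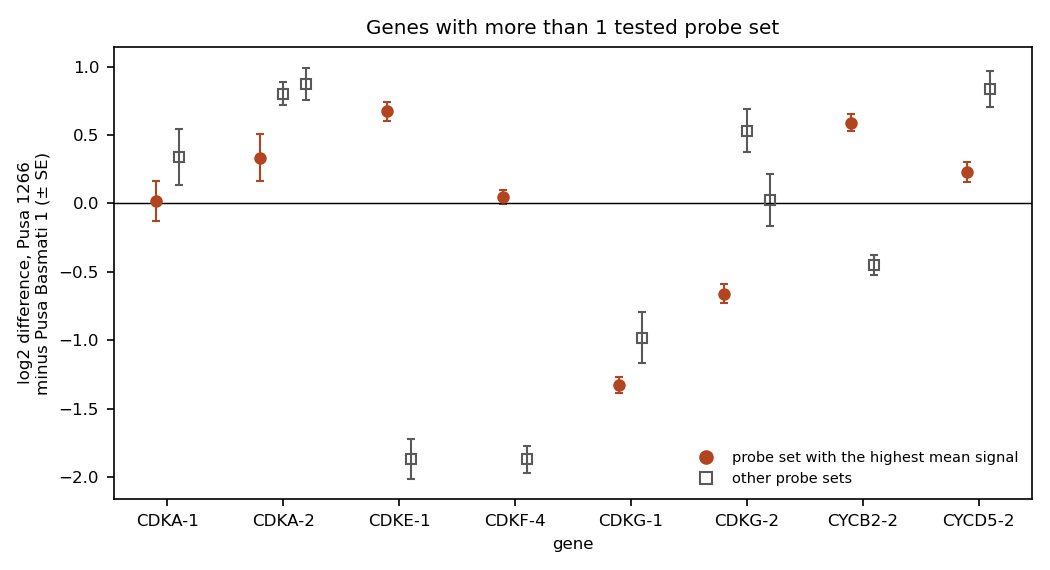
Log2 difference, Pusa 1266 minus Pusa Basmati 1, of every tested probe set of the 8 genes with more than 1, with standard errors as bars. Filled circles are the probe set with the highest mean signal, which stands for the gene in the text, and open squares the others. CDKE-1, CDKG-2 and CYCB2-2 have probe sets called on opposite sides of 0, and CDKF-4 has one near 0 and one at −1.87.

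Of the 8 members with more than 1 tested probe set 3 had the same call on all of them. CYCD5-2 was called higher and CDKG-1 lower on each, whereas CDKA-1 was not called on any. The second probe set of CDKA-1 was dim, with deposited signals of 13.3 and 27.3 in Pusa 1266 against 19.6 and 24.8. Opposite calls were made for 3, CYCB2-2, CDKE-1 and CDKG-2, where 14.9% of the 2434 tested genes with more than 1 tested probe set had opposite calls. CDKA-2 and CDKF-4 were called on some probe sets only. How often all tested genes had the same call throughout, or a call on some probe sets only, was not counted. The other D-type cyclins and the other mitotic cyclins had 1 probe set each, so that no second reading exists for CYCD3-2, CYCD5-1, CYCB1-3 or CYCB2-1. Positions of probe sets along the transcripts and cultivar alleles under them were not examined here. The 3' to 5' ratio moved with cultivar, and its part in these disagreements was not tested.

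Inhibitors of CDKs were taken from a list of KRP, SMR and EL2 names, of which 6 of 8 genes had a probe set. Of these 3 were called higher and 1 lower, with a median of 0.20. The 66.7% called lies near the 61.0% of all tested genes. KRP proteins bind cyclin and CDK pairs and block them. KRP4, on chromosome 10, had normalised signals of 528 and 458 in Pusa 1266 against 139 and 146 in Pusa Basmati 1, and deposited signals of 373 and 369 against 179 and 211. It was 3.21-fold higher (1.68 ± 0.09, adjusted p = 3.15e-06) and was called higher under all 4 scalings.

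KRP6 had 103 and 98.5 against 37.9 and 40.7 and was 2.11-fold higher (1.08 ± 0.12, adjusted p = 0.000152), with 0.38 as deposited, not called. KRP5 had 2060 and 2000 against 1511 and 1628; it rose by 0.37 ± 0.05 and turned to −0.28 as deposited. KRP1, with 47.3 and 54.7 against 51.0 and 48.1 and overlapping cultivars, stood at 0.03 ± 0.13 and was not called. EL2, a rice gene of the SIAMESE-related inhibitors first known from its response to elicitors, had 1533 and 1503 against 2475 and 2596. It was 1.66-fold lower (−0.73 ± 0.05, adjusted p = 1.08e-05), and its second probe set stood at −1.99 ± 0.18. SMR1 at −0.14 ± 0.06 was not called.

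Both retinoblastoma-related genes, whose proteins are targets of D-type cyclin kinases, were called higher on the probe sets used, where 34.7% of all tested genes were. RBR1 had 855 and 799 in Pusa 1266 against 594 and 560 (0.51 ± 0.07, adjusted p = 0.000351), and RBR2 had 458 and 469 against 331 and 369 (0.39 ± 0.08). With the deposited scaling they stood at −0.26 and −0.42. The second probe set of RBR1 was called lower, at −0.50 ± 0.13, and the mean of both was 0.0034 and not called. The rise of RBR1 therefore rests on the probe set used, and both are of a kind that can match several transcripts. No gene of the reference table matched the E2F, DP or anaphase-promoting complex names searched, so these were not analysed here.

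CKS1, a small subunit that docks CDKs to substrates, rose by 0.31 ± 0.05, and CDC25.1 by 0.27 ± 0.07. CDC25.2 stood at −0.03 ± 0.06 and was not called. In rice both CDC25 genes are also named as arsenate reductases. MYB3R-2, a factor known in rice to bind the promoter of a B1-type cyclin gene, stood at 0.07 ± 0.09 and was not called. CKS1 and CDC25.1 turned negative with the deposited scaling, at −0.39 and −0.49. CDC25.1 did not pass without the first replicate of either cultivar (0.22 and 0.20).

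Of 28 genes of replication licensing and DNA synthesis 6 were called higher and 11 lower, with a median of −0.13. The 60.7% called lies near the 61.0% of all tested genes. With the deposited scaling 27 of the 28 were called lower, where 66.7% of all tested genes were. Of the 5 measured subunits of the origin recognition complex 4 were called lower, with differences from −0.86 to 0.07, where 26.3% of all tested genes were called lower. Of 8 genes of the MCM helicase family 4 were called lower and 2 higher, where 26.3% and 34.7% of all tested genes were. Their differences ran from −0.58 to 0.31. The lowest was that of MCM8, which was not called and was dim, with deposited signals of 1.1 and 11.6 in Pusa 1266 against 22.3 and 24.8. RFC1, the large subunit of the clamp loader, had normalised signals of 266 and 277 in Pusa 1266 against 863 and 876 in Pusa Basmati 1. It was 3.08-fold lower (−1.62 ± 0.06, adjusted p = 6.25e-07), whereas the other 4 RFC genes lay between −0.09 and 0.49. The median of the list ran from −0.16 to −0.11 when 1 array was left out. Fewer of its genes passed in each of these fits, and the shares of all tested genes there were not counted. The difference between this list and the D-type cyclins was not tested.

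**Figure D5:**
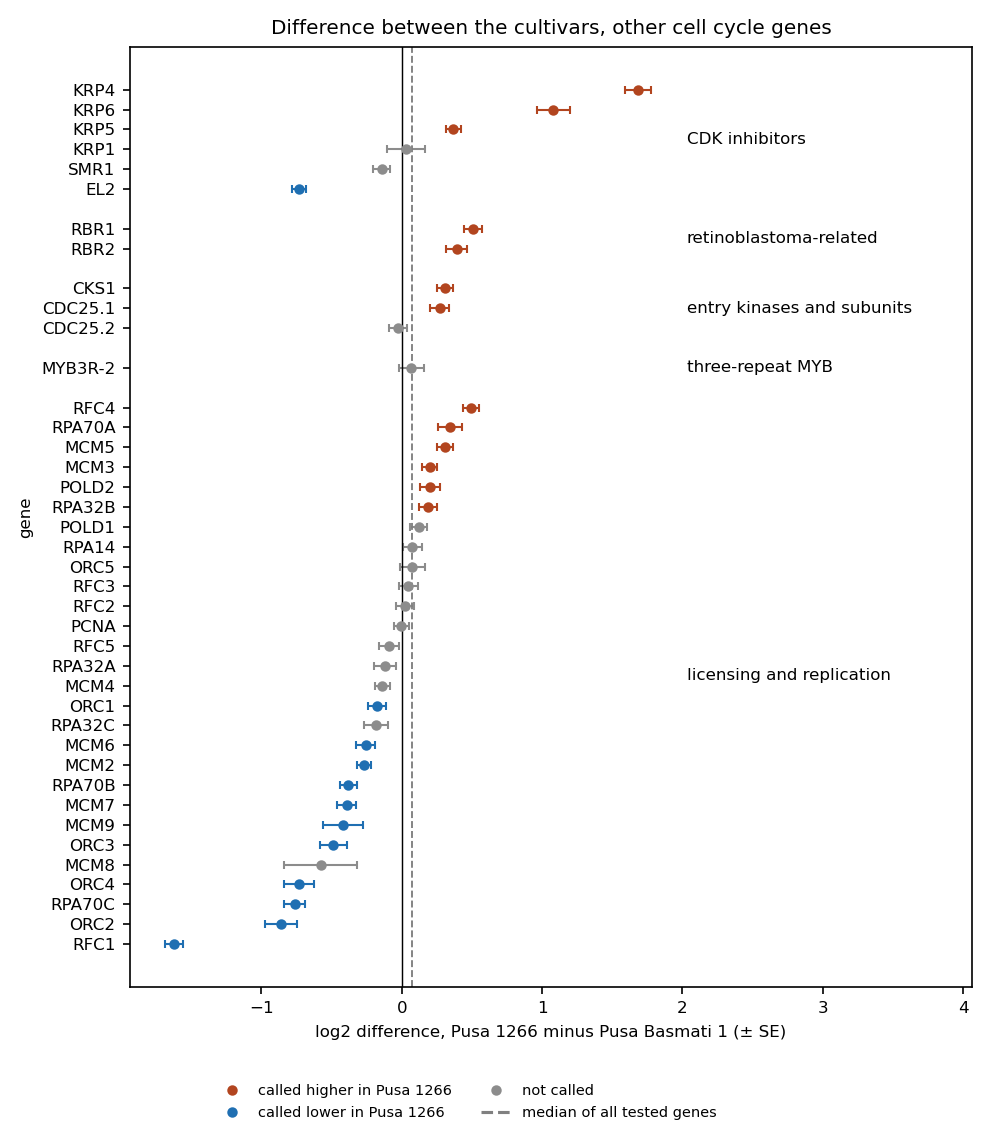
Log2 difference between the cultivars for the other cell cycle genes tested, Pusa 1266 minus Pusa Basmati 1, with the standard error from limma as bars (n = 2 arrays per cultivar). KRP4 and KRP6 stand furthest to the right at 1.68 and 1.08 and RFC1 furthest to the left at −1.62, and the dashed line is the median of all tested genes.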

How the data were processed

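The values deposited by the authors are linear signal intensities of 57381 probe sets on each array. GCOS 1.2 is the software named in the submitters' processing notes; how background and scale were handled is not given in the sources used here. Arrays give no counts, and their number, 2 per cultivar, limits the precision.

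The 123 control probe sets were left out. Signals were transformed as log2(signal + 16), quantile normalized and fitted in limma 3.58.1 (R 4.3.3; lmFit, then eBayes with its trend option), with cultivar as the only term. A probe set was tested if it stood above the array median on 2 or more arrays. The calculation was tested on simulated data that held no difference in scale between arrays, so that test cannot judge the choice of scaling. Normalised signals in the text are the normalised log2 values turned back to the linear scale with 16 taken off. Standard errors are those of limma.

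In the array annotation 22436 probe sets carry 1 gene, 95 carry several and 34727 carry no gene. Names and chromosomes come from the reference gene table of assembly ASM3414082v1, a Japonica rice, and the probe set of highest mean signal stands for a gene. Each member is given by class. Those called at 2-fold or more, those of the CDKA and CDKB classes and the one with the highest mean in each class were to be given with all signals, as were KRP, RBR and other cell cycle genes called at 2-fold or more. The text adds the signals of further members, chosen after their values were seen. A gene named PAP2 other than MADS34, and MADS18, which has the synonym MADS2, were left out of the markers. The members and lists were chosen with earlier results of these data known. Python 3.11.15 with pandas 2.3.3 and numpy 2.4.6 handled the tables, and matplotlib 3.10.9 drew the plots.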

Additional observations from a re-analysis of the deposited data

How the results depend on the processing

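Scaling between arrays moved the calls most among the alternatives run. As deposited, the numbers called higher and lower were 2 and 25 for all cyclins and kinases, 2 and 4 for D-type, 0 and 5 for mitotic and 0 and 6 for other cyclins, 0 and 10 for kinases, 1 and 3 for CDK inhibitors and 0 and 27 for licensing and replication. With median centring they were 4 and 20, 3 and 3, 1 and 4, 0 and 4, 0 and 9, 2 and 2, and 0 and 24 in the same order. The cause was not tested. With the trimmed mean scaling 1 mitotic cyclin and 2 other cyclins were called lower. Without a filter or without the trend 5 D-type cyclins and 3 replication genes were called higher, and without the trend 1 mitotic cyclin was called lower and 1 other cyclin higher. Without the probe sets of the _s_at and _x_at kinds, which can match transcripts of other genes, 2 kinases were called higher. For these settings other than the scalings, the shares of all tested genes called were not counted. With 1 array left out the median difference ran from 0.03 to 0.22 for all members. It ran from 0.35 to 0.49 for D-type, 0.11 to 0.25 for mitotic and 0.03 to 0.19 for other cyclins. For kinases the range was −0.15 to −0.05, and for licensing and replication −0.16 to −0.11. In these fits a lone array is assumed to vary like the other cultivar.

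Of the 47 genes followed one by one, the deposited scaling changed the sign of 26, all called in at least 1 of the 2 fits: CYCD2-2 (−0.60), CYCD3-1 (−0.15), CYCD4-1 (−0.48), CYCD5-2 (−0.58), CYCD6-1 (−0.35), CYCA1-4 (−0.42), CYCA2-1 (−0.63), CYCA3-2 (−0.68), CYCB2-2 (−0.15), CYCH-1 (−0.21), CYCL1-1 (−0.53), CYCP4-1 (−0.43), CYCT1-2 (−0.74), CYCT1-4 (−0.74), CDKA-1 (−0.74), CDKA-2 (−0.49), CDKD-1 (−0.76), CDKE-1 (−0.14), CDKF-4 (−0.70), KRP1 (−0.63), KRP5 (−0.28), RBR1 (−0.26), RBR2 (−0.42), CKS1 (−0.39), CDC25.1 (−0.49) and MYB3R-2 (−0.75). Median centring changed the sign of 22, of which 4 were called in neither fit, namely KRP1 (−0.40), CYCA1-4 (−0.19), CDKA-2 (−0.26) and CYCP4-1 (−0.20). The other 18 were CYCD2-2 (−0.36), CYCD4-1 (−0.24), CYCD5-2 (−0.35), CYCD6-1 (−0.12), CYCA2-1 (−0.40), CYCA3-2 (−0.45), CYCL1-1 (−0.29), CYCT1-2 (−0.50), CYCT1-4 (−0.51), CDKA-1 (−0.50), CDKD-1 (−0.53), CDKF-4 (−0.47), KRP5 (−0.050), RBR1 (−0.025), RBR2 (−0.19), CKS1 (−0.15), CDC25.1 (−0.25) and MYB3R-2 (−0.52). The mean over the probe sets of a gene turned CDKE-1 (−0.60) and CDKF-4 (−0.91), and CDKA-1 ran from −0.25 to 0.29 with 1 array left out, turning without the second Pusa Basmati 1 replicate. With the trimmed mean scaling 2 genes called in neither fit changed sign, and with 1 array left out up to 4 such genes did. With pseudocount 64 all 47 kept their direction and side of the threshold, and with pseudocount 1 all but CYCD2-2 did. Both cultivars number their replicates 1 and 2, and the differences between replicates correlated with r = 0.0181 across probe sets, so the numbers were not taken as pairs. With the replicate number as a block all 47 kept their call, and the counts for all members were again 13 higher and 7 lower. Signals near 16 or below leave the size of a difference to the added constant.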
